A study of Arabidopsis thaliana with 8 samples.

Results

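The genotype by ABA interaction is the difference between the ABA effect in skip-1 seedlings and the ABA effect in wild type, taken for each gene. It used all 8 libraries of the study and was tested for 21008 of the 33674 features in the deposited count table. The material was whole 13-day-old seedlings of Arabidopsis thaliana, either wild type (ecotype Col-0) or skip-1, treated for 3 h with abscisic acid (ABA) at 0 or 100 µM. The seedlings given 0 µM are called mock here. Wild type mock, wild type with ABA, skip-1 mock and skip-1 with ABA had 2 RNA sequencing libraries each. A single mutant line was used, so an effect of the mutation and any other feature of that line cannot be told apart, and the sources used here do not give its lesion. Nothing in the labels says that the libraries of a group came from separate plants or cultures, so p-values reflect the spread between libraries, which may be technical. In whole seedlings, fewer cells of a type and less RNA per cell cannot be told apart.

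ABA is the hormone through which plants respond to drought and salt and keep seeds dormant. Its receptors of the PYR, PYL and RCAR family bind and block the clade A PP2C phosphatases when the hormone is present. The SnRK2 kinases, no longer held back by the phosphatases, then activate ABF and ABI5 transcription factors, which bind promoter elements with an ACGT core and switch on genes for protective proteins, sugars and proline. SKIP is a component of the spliceosome that also acts in transcription together with the Paf1 complex.

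The libraries held 20870110 to 23640113 counted reads, and log2 CPM (read counts scaled to a common library size) correlated at 0.983 to 0.989 between the libraries of a group. The scaling factors by trimmed mean of M values (TMM) were 0.908 and 0.918 in wild type with ABA and 1.00 to 1.06 in the other 6 libraries. SKIP (AT1G77180) stood at 150 and 163 CPM in wild type mock and 136 and 161 with ABA, and at 104 and 133 CPM in skip-1 mock and 108 and 125 with ABA. Its difference of ABA effects was 0.05 ± 0.21 (log2 ± SE, edgeR adjusted p = 0.917), which was not called. Where the lesion lies within the counted gene is not known here, so this level does not check the genotype labels. SE values are approximate, each derived from the size of the log2 difference and its quasi-likelihood F.

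Skip-1 responded less to ABA than wild type in nearly all genes whose response differed. The difference of ABA effects passed the threshold (edgeR's quasi-likelihood test, adjusted p under 0.05, termed called below) for 644 of 21008 genes (3.07%). It was below 0 for 476 genes (2.27%) and above 0 for 168 (0.8%). Genes that ABA raised less in skip-1 than in wild type numbered 457, and genes that it lowered less numbered 137, so 594 of the 644 (92.2%) had a smaller response in the mutant. Among all tested genes, 64.3% had the smaller absolute ABA effect in skip-1. Of the 4974 genes that ABA raised in wild type (23.7% of those tested), 87.9% had a smaller effect in skip-1, with medians of 1.07 in wild type and 0.62 in skip-1, and 474 of them (9.53%) were called. Genes picked in skip-1 instead numbered 3429 raised (16.3%), of which 67.4% had the smaller effect in skip-1. These shares depend on the genotype in which the genes were picked and are descriptions. The called differences ranged in size from 0.55 to 6.91 on the log2 scale with a median of 1.19, and 416 were at least 2-fold. The median difference over all tested genes was −0.02, with quartiles of −0.31 and 0.26.

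Every one of the 644 genes had its 4 differences between ABA and mock libraries in skip-1 on 1 side of the 4 in wild type, as had 36.1% of all tested genes. This used the same libraries as the test that picked the genes, so it describes the calls and does not check them. At an unadjusted p under 0.05 stood 4134 genes, DESeq2 called 1201 and limma-voom called 442. With the replicate number as a block, edgeR called 1357, of which 422 were above 0, 935 below 0, 651 at least 2-fold and 1201 smaller responses in skip-1, and 636 of the 644 were among them. With scaling by library size alone the median over all genes moved to 0.15, 535 genes were called, and 44.5% of the calls lay below 0 in place of 73.9%. The share with a smaller response in skip-1 was 89.5% under that scaling. Leaving out 1 library changed the count of calls. It was 155 and 183 without wild type mock replicate 1 or 2, 121 and 319 without wild type ABA replicate 1 or 2, and 255 and 304 without skip-1 ABA replicate 1 or 2. Without skip-1 mock replicate 1 or 2 it was 608 and 531. The share of calls with a smaller response in skip-1 lay between 85.1% and 95.1% in these 8 fits.

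**Figure D1:**
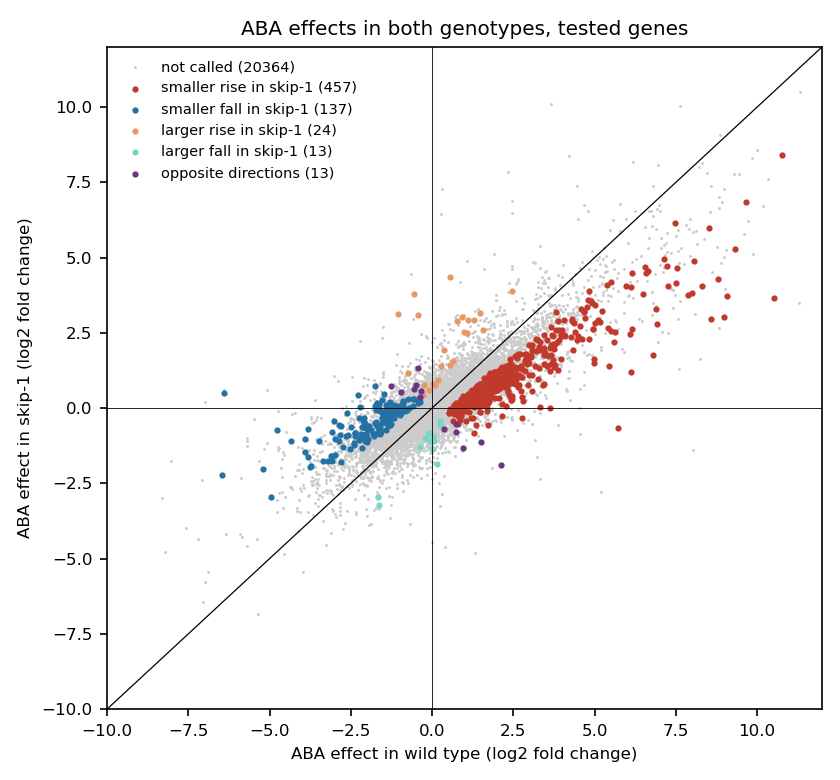
Log2 ABA effect of each tested gene in wild type (horizontal axis) and in skip-1 (vertical axis), with the diagonal marking equal effects and grey points marking genes not called. The 457 smaller rises lie below the diagonal on the right, the 137 smaller falls above it on the left, and the other 3 classes hold 24, 13 and 13 genes.

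**Figure D2:**
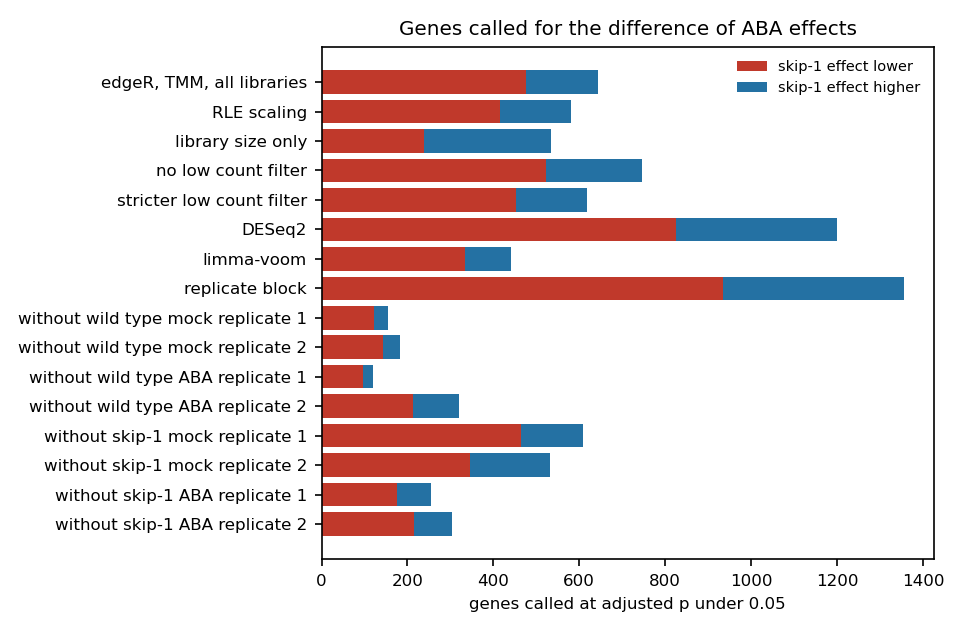
Number of genes called for the difference of ABA effects at an adjusted p under 0.05 (horizontal axis) in each fit, stacked as differences below and above 0. With all libraries 476 lie below 0 and 168 above it, with scaling by library size alone 238 and 297, and without wild type ABA replicate 1 the total is 121.

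The called genes fell into 5 patterns. In the 457 smaller rises, the median ABA effect was 2.08 in wild type and 0.87 in skip-1, and for 132 of them the ABA effect in skip-1 was not called. Over all tested genes, ABA was called in 43.1% in wild type and 28.5% in skip-1. In the 137 smaller falls the medians were −1.74 and −0.51, and 64 had no called effect in skip-1. A larger rise in skip-1 was found for 24 genes (medians 0.46 and 2.52) and a larger fall for 13 (medians −0.02 and −1.08). In the last 13 genes the ABA effects were called in opposite directions.

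The patterns also differed in where the genotypes stood apart. Of the 644 genes, 343 (53.3%) differed between genotypes with ABA alone, 127 (19.7%) without ABA alone, 123 (19.1%) in both treatments in opposite directions and 51 (7.92%) in both in 1 direction. Among all tested genes these shares were 18.8%, 8.31%, 0.585% and 11.6%, and the genotypes differed in 31% of them with ABA and 20.5% without. In neither treatment did the genotypes differ for 60.7% of all tested genes, against 0 of the 644. The shares over all tested genes thus include genes that differed nowhere, so they cannot be set directly against those of the 644. All 123 tested genes that differed in opposite directions were called. A reversal of that kind is itself a difference of ABA effects, so that share was bound to be larger among the called genes. The classes and the contrast share their libraries, so these counts describe the called genes and test nothing further. Of the smaller rises, 251 differed with ABA alone, 85 in mock alone and 96 in both in opposite directions, being higher than wild type in mock and lower with ABA.

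**Figure D3:**
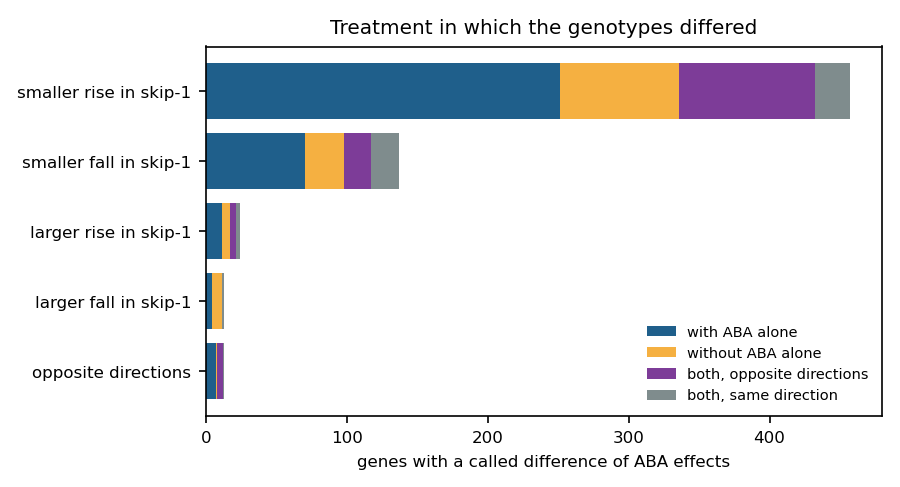
Number of called genes (horizontal axis) in each response pattern, coloured by the treatment in which skip-1 and wild type differed at an adjusted p under 0.05. Among the 457 smaller rises, 251 differed with ABA alone, 85 without ABA alone, 96 in both in opposite directions and 25 in both in 1 direction.

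Among genes of water transport, 9 of 18 rose less with ABA in skip-1 than in wild type. Aquaporins are channel proteins for water in the plasma membrane (PIP) and the vacuole membrane (TIP). Of the 18 aquaporin genes tested, 9 had a called difference below 0 and none above it, with a list median of −0.73 against −0.02 over all genes and with 3.07% of all genes called. All 9 rose in wild type, and of all genes that ABA raised there 9.53% were called. The count was 2 without wild type ABA replicate 1, 4 without either wild type mock replicate, and 5 and 6 without skip-1 ABA replicate 1 or 2. It was 8 with scaling by library size alone, 7 of them below 0. With the replicate block it was 10, and with DESeq2 11.

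PIP1A (AT3G61430, chromosome 3, 22733243 to 22735394) stood at 193 and 187 CPM in wild type mock and 663 and 727 with ABA, and at 213 and 235 CPM in skip-1 mock and 353 and 384 with ABA. The mock libraries of both genotypes lay close together, and both skip-1 libraries with ABA lay below both of wild type. ABA raised it by 1.87 ± 0.11 in wild type and 0.72 ± 0.10 in skip-1, a difference of −1.15 ± 0.15 (edgeR adjusted p = 0.00863). RD28 (AT2G37180), which codes for a plasma membrane aquaporin first found as a desiccation-responsive gene, stood at 18.3 and 19.9 CPM in wild type mock and 353 and 281 with ABA. In skip-1 it went from 14.3 and 14.8 to 74.6 and 81.5 CPM, a level with ABA well under that of wild type, and the difference was −1.63 ± 0.18 (edgeR adjusted p = 0.00711). Reads shared with its close paralog PIP2B could not be told apart from gene counts.

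TIP2;2 (AT4G17340), of the vacuole membrane, went from 54.8 and 38.7 to 295 and 286 CPM in wild type, and from 60.5 and 58.4 to 110 and 83.2 CPM in skip-1. Skip-1 lay just above wild type in mock and far below it with ABA, with a difference of −1.93 ± 0.25 (edgeR adjusted p = 0.0111, and 0.0558 without wild type ABA replicate 1). PIP2B (AT2G37170) rose from 161 and 171 to 535 and 555 CPM in wild type and from 115 and 134 to 180 and 199 CPM in skip-1, which was the lower genotype in both treatments. Its difference was −1.10 ± 0.16 (edgeR adjusted p = 0.0122), and the call was lost without wild type mock replicate 1 (adjusted p = 0.0629) or wild type ABA replicate 1 (0.0557). The other 5 called members were PIP1B (−0.85), PIP1;4 (−1.32), PIP2A (−1.13), PIP2;5 (−1.40) and GAMMA-TIP (−1.03). Of the 5 aquaporin genes that fell in wild type, none was called for the difference.

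Receptors and phosphatases of the ABA pathway responded less in skip-1 where they were called. Of 9 ABA receptor genes tested, 2 had a called difference above 0, where 0.8% of all genes had one. The list median was 0.26, and 4 of the 9 differences lay below 0. ABA lowered 6 of the 9 in each genotype, against 19.5% of all genes in wild type and 12.1% in skip-1. PYL4 (AT2G38310) fell from 108 and 116 to 3.22 and 4.02 CPM in wild type and from 45.6 and 52.9 to 8.2 and 4.63 CPM in skip-1. The mutant started lower and ended higher, with ABA effects of −4.95 ± 0.26 and −2.94 ± 0.24 and a difference of 2.01 ± 0.34 (edgeR adjusted p = 0.0275). That call was lost in the 4 fits that lacked a wild type library and in the one that lacked skip-1 mock replicate 1 (highest adjusted p 0.124). RCAR3 (AT5G53160) fell from 141 and 149 to 30.7 and 38.8 CPM in wild type and from 93.6 and 125 to 54.8 and 52.2 CPM in skip-1, a difference of 1.03 ± 0.22 (edgeR adjusted p = 0.0479). Its call was lost with limma-voom (0.053) and without any 1 library other than skip-1 mock replicate 2 (up to 0.154).

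Of the 9 clade A PP2C phosphatase genes, which act against ABA signalling and which ABA induces, 3 had a called difference below 0. None had one above 0. Of all genes 3.07% were called, and of those that ABA raised in wild type 9.53%. The differences of all 9 ran from −3.46 to −0.93 with a median of −1.34, and all 9 rose in both genotypes. HAB2 (AT1G17550) rose from 33.2 and 32.4 to 165 and 176 CPM in wild type and from 48.5 and 44.7 to 122 and 132 CPM in skip-1. It was higher than wild type in mock and lower with ABA, and its difference was −0.93 ± 0.13 (edgeR adjusted p = 0.0128). ABI2 (AT5G57050) rose from 9.85 and 11.1 to 320 and 301 CPM in wild type, and from 19.7 and 16.8 to 179 and 249 CPM in skip-1, with the same order of the genotypes and a difference of −1.34 ± 0.23 (edgeR adjusted p = 0.0255). HAB1 (AT1G72770) had a difference of −1.47 ± 0.28 (edgeR adjusted p = 0.0391). No PP2C call was left without wild type mock replicate 1 or wild type ABA replicate 1, and 1 was left without wild type mock replicate 2, wild type ABA replicate 2 or skip-1 ABA replicate 1. There were 4 calls without skip-1 ABA replicate 2, 2 without either skip-1 mock replicate or with scaling by library size alone, 6 with the replicate block and 7 with DESeq2. HAB2 lost its call without either wild type mock replicate, wild type ABA replicate 1 or skip-1 ABA replicate 1 (adjusted p up to 0.0592), and ABI2 without any 1 wild type library or skip-1 mock replicate 1 (up to 0.108). HAB1 lost its call with library size scaling (0.0532) and without any 1 library other than wild type mock replicate 2 or skip-1 ABA replicate 2 (up to 0.102).

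None of the 10 SnRK2 kinase genes was called by edgeR, with 3 at an unadjusted p under 0.05, 1 called by DESeq2 and none by limma-voom. Their median was −0.12, and 0.06 with scaling by library size alone. Among 9 ABF, ABI and AFP genes, ABF3 (AT4G34000), a bZIP factor of the ABA response, was the only one called. It rose from 26.6 and 34.9 to 434 and 432 CPM in wild type and from 56.4 and 52 to 295 and 356 CPM in skip-1, and differed by −1.23 ± 0.20 (edgeR adjusted p = 0.0216). Its call was lost without replicate 1 of wild type mock, replicate 1 or 2 of wild type with ABA, or replicate 1 of skip-1 with ABA (highest adjusted p 0.0908). The list median was −0.81, and −0.64 with scaling by library size alone. With the replicate block, or with DESeq2, 3 of the 9 were called.

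Of 20 genes of ABA synthesis, breakdown and transport, BGLU18 (AT1G52400) was called, and its response was larger in skip-1. It codes for a glucosidase that frees ABA from its glucose ester in the endoplasmic reticulum. It stood at 88.6 and 89.1 CPM in wild type mock and 162 and 189 with ABA, and at 238 and 256 CPM in skip-1 mock and 1242 and 1634 with ABA. Skip-1 was the higher genotype in both treatments without overlap, and ABA raised the gene by 0.98 ± 0.15 in wild type and 2.54 ± 0.15 in skip-1. The difference was 1.56 ± 0.20 (edgeR adjusted p = 0.00942, and 0.0533 without wild type ABA replicate 1). The list median was −0.13, and 0.04 with scaling by library size alone. DESeq2 called 5 of the list, as did edgeR with the replicate block, and edgeR called 3 and 2 without skip-1 mock replicate 1 or 2.

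Some transcription factor genes downstream of ABA rose less in skip-1. Of 16 stress NAC, MYB and HD-Zip genes, 3 were called (18.8%, against 3.07% of all genes), all below 0, with a list median of −1.01. Of genes that ABA raised in wild type, as 15 of the 16 were, 9.53% were called. DESeq2 called 6 of the list and limma-voom 1. HB-7 (AT2G46680), an HD-Zip factor of the drought response, rose from 24.1 and 28.8 to 992 and 982 CPM in wild type and from 70 and 81.6 to 688 and 735 CPM in skip-1. The mutant was well above wild type in mock and below it with ABA, and the difference was −1.99 ± 0.17 (edgeR adjusted p = 0.00292). MYB74 (AT4G05100), a MYB factor, rose from 1.54 and 1.5 to 150 and 152 CPM in wild type and from 1.96 and 2.96 to 47.8 and 67.6 CPM in skip-1, a difference of −2.08 ± 0.33 (edgeR adjusted p = 0.0203). Its call was lost with limma-voom (0.0645) and without any 1 wild type library (up to 0.0904). HB-12 (AT3G61890), the closest relative of HB-7, stood just inside the threshold at −1.43 ± 0.30 (edgeR adjusted p = 0.0498) and lost its call in 12 of 15 other fits, among them each that lacked 1 library other than skip-1 ABA replicate 2 (up to 0.161). The list had 1 call without any 1 wild type library and 5 without skip-1 mock replicate 1.

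Genes for late embryogenesis abundant (LEA) proteins and other dehydration-induced products rose strongly in both genotypes. Of 32 tested, 31 were raised by ABA in wild type and 31 in skip-1. A called difference was found for 3.07% of all genes and for 9.53% of those that ABA raised in wild type. It was found for 4 of the 32 (12.5%), all below 0, with a list median of −0.64. At an unadjusted p under 0.05 stood 15, and 8 were called by DESeq2 and 8 by edgeR with the replicate block. With ABA present, 19 of the 32 were lower in skip-1 than in wild type and 2 were higher. Of all genes, 31% differed between genotypes with ABA in either direction. The 4 called members were GolS2, RD22, P5CS1 and RD20, with no LEA protein gene among them. GolS2 (AT1G56600), galactinol synthase of the raffinose pathway, rose from 3.82 and 3.97 to 74.5 and 77.7 CPM in wild type and from 13.1 and 18.2 to 86.5 and 75.8 CPM in skip-1. Both genotypes reached the same range with ABA and were apart in mock, with a difference of −1.91 ± 0.22 (edgeR adjusted p = 0.00749).

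RD22 (AT5G25610), a BURP domain protein gene of the drought response, rose from 197 and 204 to 2610 and 2510 CPM in wild type and from 303 and 390 to 1561 and 1375 CPM in skip-1. It was higher than wild type in mock and lower with ABA, and differed by −1.59 ± 0.19 (edgeR adjusted p = 0.00778). P5CS1 (AT2G39800), of proline synthesis, rose from 54.9 and 59.3 to 1385 and 1871 CPM in wild type and from 260 and 215 to 870 and 1474 CPM in skip-1. The levels with ABA overlapped and the mock levels did not, and the difference was −2.53 ± 0.37 (edgeR adjusted p = 0.0185), with the call lost without wild type mock replicate 1 (adjusted p = 0.0883) or 2 (0.0802). P5CS1 overlaps a gene on the other strand by 91 bases, and no source used here gives the strand setting of the counting. RD20 (AT2G33380), a caleosin gene, differed by −1.32 ± 0.27 (edgeR adjusted p = 0.045) and lost its call with RLE scaling (0.0518) or library size scaling (0.0551), and without any 1 library other than replicate 2 of wild type mock or replicate 1 of skip-1 mock (up to 0.153). The LEA list had 2 calls without wild type mock replicate 1 and 11 without skip-1 mock replicate 1.

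**Figure D4:**
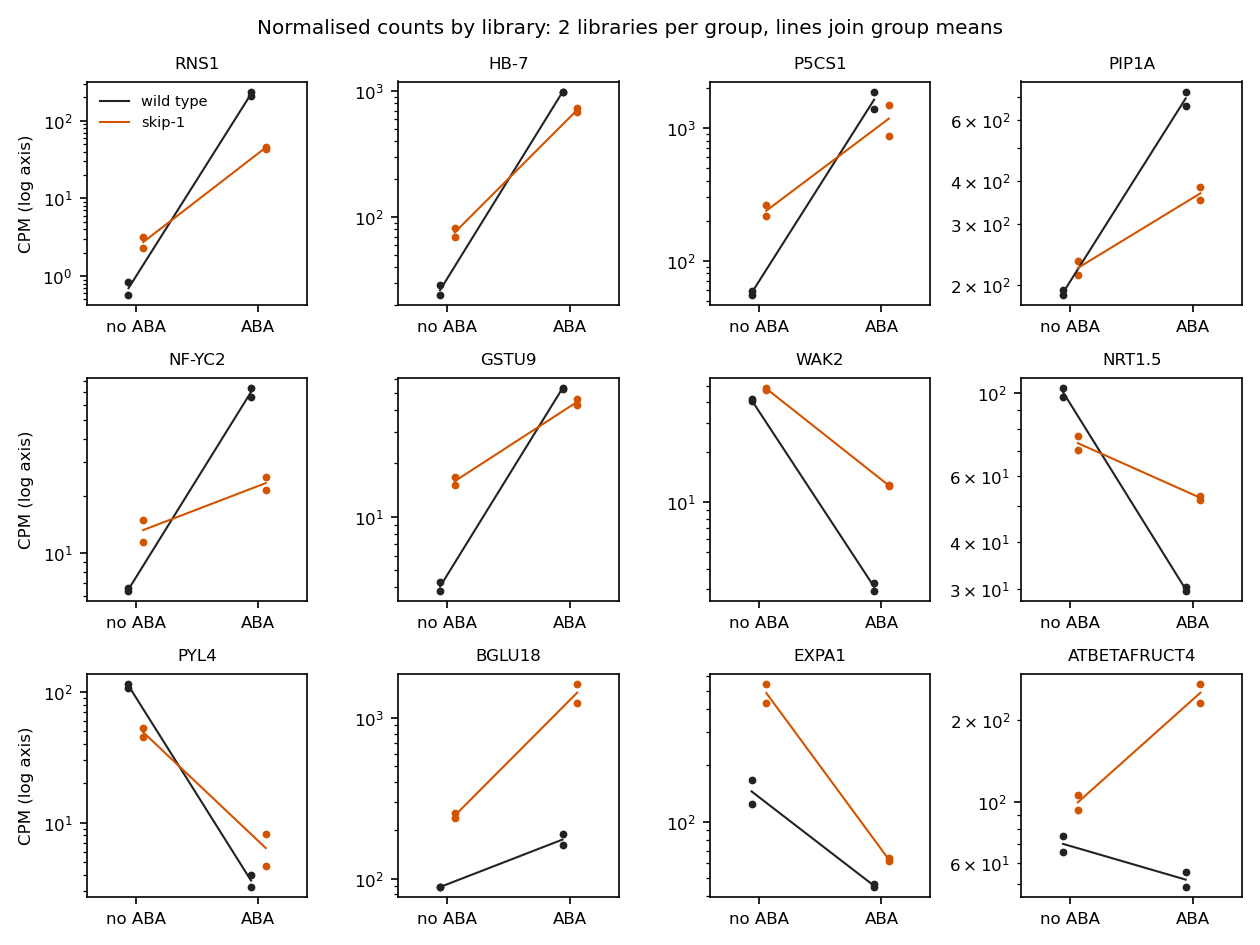
CPM of 12 genes by library on log axes that differ between panels, without and with ABA, in wild type (black) and skip-1 (orange), with lines joining the means of 2 libraries. The orange line is flatter than the black one for RNS1, HB-7, P5CS1, PIP1A, NF-YC2, GSTU9, WAK2, NRT1.5 and PYL4, steeper for BGLU18 and EXPA1, and of opposite slope for ATBETAFRUCT4.

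Promoter sequence was described as a feature that the contrast did not use. The motif ACGTGNC, a form of the ABA-responsive element, was searched on both strands of the 300 bases upstream of the annotated gene start in the RefSeq genome TAIR10.1. It was present in 97 of 474 promoters (20.5%) of genes with a difference below 0, in 14 of 168 (8.33%) of those above 0, and in 10.6% of all 20805 tested. In genes called higher with ABA in wild type, whether or not they differed between genotypes, the share was 17.3%, and 96 of the 457 smaller rises had the motif. These are descriptions without a test. The shorter core ACGTG, which every ACGTGNC match contains, was present in 44.7%, 26.2% and 26.8% of the 3 sets in the same order, and CACGTG, which overlaps both, in 16.7%, 6.55% and 8.18%. CCGAC, the core of the cold and drought element, was present in 16.2%, 10.1% and 14.8%, and AAAATATCT, the evening element of the clock, in 2.74%, 1.19% and 2.9%. The heat shock element was present in 1.69% (8 promoters), 0 and 0.524%. In genes called higher with ABA in wild type, ACGTG was present in 36.8% and CACGTG in 14.3%. In the same genes CCGAC was present in 16.8%, AAAATATCT in 3.49% and the heat shock element in 0.746%.

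Among the 20 named genes that kept their call in all 15 other fits, 4 had ACGTGNC in a window free of other genes, and these windows are printed 5′ to 3′ on the strand of the gene, ending at the base before its start, with each match in capitals. They are chr1:21207237-21207536 (plus strand) for GolS2, chr5:8916857-8917156 (minus strand) for RD22, chr5:25089627-25089926 (minus strand) for GSTU9 and chr4:17300368-17300667 (minus strand) for AT4G36700. In GolS2, matches on both strands share the capitals.
GolS2: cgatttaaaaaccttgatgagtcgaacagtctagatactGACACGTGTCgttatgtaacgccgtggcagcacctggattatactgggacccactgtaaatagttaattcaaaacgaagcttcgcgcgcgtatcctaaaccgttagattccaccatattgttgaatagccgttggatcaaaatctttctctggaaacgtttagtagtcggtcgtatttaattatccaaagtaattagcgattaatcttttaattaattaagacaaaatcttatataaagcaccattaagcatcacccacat
RD22: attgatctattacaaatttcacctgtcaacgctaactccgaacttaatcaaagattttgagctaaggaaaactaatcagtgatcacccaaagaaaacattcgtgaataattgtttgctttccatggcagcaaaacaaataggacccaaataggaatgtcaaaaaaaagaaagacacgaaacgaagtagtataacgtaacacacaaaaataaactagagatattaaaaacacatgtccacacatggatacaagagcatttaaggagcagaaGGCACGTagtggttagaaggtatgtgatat
GSTU9: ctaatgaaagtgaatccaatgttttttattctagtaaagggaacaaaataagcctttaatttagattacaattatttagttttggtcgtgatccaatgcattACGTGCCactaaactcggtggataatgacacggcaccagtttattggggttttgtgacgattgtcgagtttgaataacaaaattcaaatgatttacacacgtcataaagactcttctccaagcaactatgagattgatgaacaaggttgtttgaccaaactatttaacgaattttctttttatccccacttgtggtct
AT4G36700: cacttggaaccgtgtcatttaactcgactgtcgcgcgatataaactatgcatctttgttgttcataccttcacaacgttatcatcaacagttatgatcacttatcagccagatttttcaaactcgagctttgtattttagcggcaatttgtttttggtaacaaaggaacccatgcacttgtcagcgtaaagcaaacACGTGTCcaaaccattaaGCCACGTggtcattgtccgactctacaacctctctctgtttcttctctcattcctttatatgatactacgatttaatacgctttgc

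The other smaller rises with the smallest adjusted p or the largest size came from several functions. RNS1 (AT2G02990, chromosome 2, 873506 to 874886), a secreted ribonuclease gene of phosphate starvation and wounding, stood at 0.831 and 0.567 CPM in wild type mock and 236 and 205 with ABA. In skip-1 it went from 2.32 and 3.15 to 43.7 and 46.4 CPM, above wild type in mock and below it with ABA without overlap in either treatment. ABA raised it by 8.29 ± 0.21 in wild type and 4.05 ± 0.17 in skip-1, a difference of −4.25 ± 0.27 (edgeR adjusted p = 0.00285, the smallest of all genes). AT4G36700, described by RefSeq as a cupin family protein gene, rose from 0.249 and 0.081 to 9.85 and 7.94 CPM in wild type. It already stood at 26.2 and 15.8 CPM in skip-1 mock and was at 13.6 and 13.3 CPM with ABA, where the change of −0.65 ± 0.25 was not called, and its difference was −6.36 ± 0.53 (edgeR adjusted p = 0.00292).

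GSTU9 (AT5G62480), a glutathione transferase gene, rose from 4.28 and 3.81 to 52.6 and 53.3 CPM in wild type and from 16.7 and 15 to 42.7 and 46.1 CPM in skip-1. The mock levels were clearly apart and the levels with ABA nearly met, with a difference of −2.23 ± 0.16 (edgeR adjusted p = 0.00292). NF-YC2 (AT1G56170), a subunit of a CCAAT-binding factor, rose from 6.61 and 6.32 to 73.9 and 66.3 CPM in wild type and from 14.9 and 11.5 to only 21.5 and 25.1 CPM in skip-1. It crossed over between treatments and differed by −2.62 ± 0.21 (edgeR adjusted p = 0.00292), though it overlaps a gene on the other strand by 1417 bases, which leaves the source of its reads uncertain. PRP2 (AT2G21140), a proline-rich cell wall protein gene, rose from 43 and 35.4 to 213 and 214 CPM in wild type and from 51.7 in both skip-1 mock libraries to 71.1 and 66.9 CPM. Skip-1 was slightly above wild type in mock and far below it with ABA, and the difference was −2.03 ± 0.15 (edgeR adjusted p = 0.00292). CHI (AT2G43570), a chitinase gene, went from 4.03 and 5.18 to 236 and 209 CPM in wild type and from 7.45 and 11.4 to 39 and 46.7 CPM in skip-1, a difference of −3.40 ± 0.30 (edgeR adjusted p = 0.00467). These 6 genes, RNS1 and AT4G36700 included, kept their calls in all 15 other fits.

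The remaining large differences below 0 were less stable. AT3G02480, of the LEA family but outside the LEA list above, went from 1.87 and 1.58 to 1110 and 776 CPM in wild type. In skip-1 it went from 32.5 and 22 to 466 and 262 CPM, a difference of −5.35 ± 0.53 (edgeR adjusted p = 0.00817). It lost its call without wild type mock replicate 1 (adjusted p = 0.0533) or 2 (0.0503). SAG29 (AT5G13170), a sugar transporter gene of senescence, rose from 0.748 and 0.648 to 372 and 253 CPM in wild type and from 23.6 and 8.98 to 348 and 296 CPM in skip-1, so that the genotypes overlapped with ABA and were apart in mock (−4.50 ± 0.74, edgeR adjusted p = 0.0383). PUB19 (AT1G60190), a ubiquitin ligase gene of the drought response, rose from 0.623 and 2.07 to 282 and 361 CPM in wild type and from 8.21 and 13.1 to 115 and 173 CPM in skip-1 (−4.13 ± 0.64, edgeR adjusted p = 0.0318). The RING protein gene AT1G24580 (−5.05), DIP2 (AT5G03210, −4.15), the beta-amylase gene BAM5 (AT4G15210, −4.11) and AT3G27250 (−3.52) completed the 10 largest called differences below 0 among genes whose mean log2 CPM was 2 or more. AT1G24580, SAG29, DIP2, AT3G27250 and BAM5 lost their calls without any 1 wild type library, and PUB19 without those other than wild type mock replicate 2. Without skip-1 ABA replicate 1, AT1G24580, SAG29, DIP2, PUB19 and BAM5 lost them too, without skip-1 ABA replicate 2 SAG29, PUB19 and BAM5, without skip-1 mock replicate 1 DIP2 and BAM5, and without skip-1 mock replicate 2 PUB19 and BAM5. The highest adjusted p in these fits was 0.17. DIP2 and BAM5 also lost their calls with the replicate block (0.0748 and 0.0664), library size scaling (0.0566 and 0.0586), no count filter (0.0908 and 0.0901) and limma-voom (0.0729 and 0.0695). SAG29 and AT3G27250 lost theirs with limma-voom (0.0686 and 0.0645), and SAG29 and PUB19 without the count filter (0.0728 and 0.0611).

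Heat shock genes gave 4 calls below 0 among 20 tested, where 2.27% of all genes were called below 0. Of genes that ABA raised in wild type, as 16 of the 20 were, 9.53% were called in either direction. The list median was −1.46. With ABA, 14 of the 20 were lower in skip-1 and 0 were higher, where 31% of all genes differed between genotypes in either direction. AT1G07400, a small heat shock protein gene, rose from 1.83 and 1.7 to 112 and 63.4 CPM in wild type and from 1.84 and 0.941 to 7.88 and 8.5 CPM in skip-1. The genotypes overlapped in mock and were far apart with ABA, at −3.10 ± 0.55 (edgeR adjusted p = 0.0383). HSP17.4 (AT3G46230) had 1 count in both wild type mock libraries together and 519 with ABA, 643-fold higher (95% counting interval 115 to 25447). In skip-1 it stood at 0.521 and 0.611 CPM in mock and 5.47 and 3.86 with ABA, and its called difference (edgeR adjusted p = 0.018) has a fitted size that depends on the prior count. The factor genes HSFB2A (−1.26 ± 0.25, edgeR adjusted p = 0.04) and HSFA6A (adjusted p = 0.0481) were the other calls. HSFA6A had 3 counts in wild type mock and 313 with ABA, 129-fold higher (95% counting interval 43.8 to 630). AT1G07400 and HSP17.4 lost their calls with limma-voom (0.0917 and 0.0679) and without either wild type mock replicate, and AT1G07400 also without replicate 1 of skip-1 mock or either library of skip-1 with ABA (adjusted p up to 0.135). HSFB2A lost its call without any 1 wild type library, skip-1 mock replicate 2 or skip-1 ABA replicate 2 (adjusted p up to 0.137), and with library size scaling (0.0596) or limma-voom (0.0673). HSFA6A lost it without wild type mock replicate 1, skip-1 mock replicate 2 or any 1 of the 4 libraries with ABA (up to 0.134), and with RLE scaling (0.0505), library size scaling (0.0588) or limma-voom (0.0645). No heat shock gene was called by limma-voom, 11 were by DESeq2 and 8 with the replicate block, and the count was 1 without either wild type mock replicate or skip-1 ABA replicate 2. It was 2 without wild type ABA replicate 2, skip-1 mock replicate 2 or skip-1 ABA replicate 1, and 2 with scaling by library size alone.

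Genes that ABA lowered less in skip-1 had no single list. WAK2 (AT1G21270), a receptor kinase gene bound to cell wall pectin, fell from 41.7 and 40.9 to 2.92 and 3.29 CPM in wild type and from 49 and 47.8 to 12.7 and 12.6 CPM in skip-1. The mock levels were close and the skip-1 libraries with ABA lay well above those of wild type, with ABA effects of −3.73 ± 0.12 and −1.94 ± 0.10 and a difference of 1.79 ± 0.15 (edgeR adjusted p = 0.00292). WAK2 overlaps a gene on the other strand by 994 bases, so its counts are uncertain in part. NRT1.5 (AT1G32450), which loads nitrate into the xylem, fell from 103 and 97.2 to 30.3 and 29.6 CPM in wild type and from 76.5 and 70.3 to 51.9 and 53.1 CPM in skip-1. It was lower than wild type in mock and higher with ABA, and differed by 1.26 ± 0.13 (edgeR adjusted p = 0.00581).

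AT3G25190, a gene of the vacuolar iron transporter family, fell from 60.8 and 66.7 to 4.35 and 4.75 CPM in wild type, and from 9.13 and 11.9 to 3.64 and 3.18 CPM in skip-1, where it was low before ABA (2.19 ± 0.23, edgeR adjusted p = 0.00612). AT4G30690, annotated as a translation initiation factor gene, fell from 83.4 and 82.8 to 35.1 and 36.3 CPM in wild type and stood at 45.1 and 45.9 CPM in skip-1 mock and 42.6 and 40.6 with ABA. Its change in skip-1 was not called, and the difference was 1.09 ± 0.12 (edgeR adjusted p = 0.00717). WAK2, NRT1.5, AT3G25190 and AT4G30690 kept their calls in all 15 other fits. PAR1 (AT2G42870), which codes for a regulator of shade growth, fell from 25.4 and 19 to 2.97 and 2.66 CPM in wild type and from 15.1 and 22.4 to 9.88 and 8.31 CPM in skip-1 (1.94 ± 0.33, edgeR adjusted p = 0.0255). It lost its call with limma-voom (0.0558) and without replicate 1 of wild type mock, replicate 1 or 2 of wild type with ABA, or replicate 1 of skip-1 with ABA (up to 0.105).

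XTH15, AT5G62280, AT1G51270, MLO10 and AT2G15880 had larger differences above 0 (3.2, 2.88, 2.47, 2.27 and 2.2), each with a call lost in 3 to 6 of the 8 fits that lacked 1 library. All 5 lost it without wild type mock replicate 1, all but AT2G15880 without wild type mock replicate 2, all but MLO10 without wild type ABA replicate 1, and XTH15, AT5G62280 and AT2G15880 without wild type ABA replicate 2. XTH15 and AT2G15880 also lost it without skip-1 mock replicate 1, XTH15 without skip-1 mock replicate 2, AT2G15880 without skip-1 ABA replicate 1, and AT1G51270 and MLO10 without skip-1 ABA replicate 2. The highest adjusted p was 0.143. XTH15 also lost its call with the replicate block (0.0775) and without the count filter (0.0925).

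A difference on the log2 scale is a difference of fold changes, and for 18 of the 644 genes (2.8%) the difference of changes in CPM had the opposite sign. AT5G62280 was one such gene. It fell from 27.4 and 27.5 to 1.48 and 2.19 CPM in wild type and from 81.5 and 108 to 35 and 57.9 CPM in skip-1, a smaller fold but a larger loss in CPM. The difference of its CPM changes was −22.5.

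Larger responses in skip-1 were few. MBP1 (AT1G52040), a myrosinase-binding protein gene, rose from 2.58 and 2.55 to 3.61 and 5.07 CPM in wild type and from 6.85 and 10.3 to 60.3 and 66.1 CPM in skip-1 (2.13 ± 0.32, edgeR adjusted p = 0.0156). VSP1 (AT5G24780), a vegetative storage protein gene induced by jasmonate, rose from 8.64 and 7.09 to 37 and 50 CPM in wild type and from 9.01 and 7.62 to 109 and 141 CPM in skip-1. Its mock libraries overlapped between genotypes and its ABA libraries did not (1.44 ± 0.28, edgeR adjusted p = 0.0394). VSP1 was the only call among 23 jasmonate genes, whose median was 0.33 and of which ABA raised 21 in each genotype. Of that list 5 genes were called without skip-1 ABA replicate 1, 3 with scaling by library size alone, 4 with the replicate block and 5 by DESeq2. The knottin family gene AT2G43530 rose from 30.4 and 27 to 59 and 81.2 CPM in wild type and from 31.5 and 26.9 to 209 and 238 CPM in skip-1 (1.65 ± 0.23, edgeR adjusted p = 0.0127). The pectin methylesterase gene PMEPCRA (AT1G11580) stood at 69 and 59.5 CPM in wild type mock and 49 and 58.3 with ABA, a change that was not called, and rose from 55.3 and 60.3 to 92.7 and 103 CPM in skip-1. Its difference was 1.02 ± 0.18 (edgeR adjusted p = 0.0242), and the call was lost without replicate 1 of wild type mock (0.079), replicate 1 of wild type with ABA (0.0934) or replicate 2 of skip-1 with ABA (0.0693). MBP1 lost its call without either wild type mock replicate or wild type ABA replicate 1 (adjusted p up to 0.0726), and AT2G43530 without wild type mock replicate 1 (0.0543). VSP1 lost it with limma-voom (0.0616) and without any 1 library other than wild type ABA replicate 2 or skip-1 ABA replicate 1 (up to 0.125).

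Cell wall genes were the list with calls in both directions. Of 27 expansin and XTH genes, which loosen or remodel the wall and of which ABA lowered 16 in wild type and 15 in skip-1, 1 had a called difference above 0 (XTH15) and 3 below 0, with a median of 0.47. EXPA1 (AT1G69530), an expansin gene, fell from 124 and 166 to 44.6 and 46.2 CPM in wild type and from 428 and 546 to 61.9 and 63.6 CPM in skip-1. Its mock level in skip-1 was far above that of wild type and its level with ABA was much nearer to it, so the fall was larger in skip-1 (−1.28 ± 0.23, edgeR adjusted p = 0.0272). EXPA4 (AT2G39700) stood at 72.4 and 64.4 CPM in wild type mock and 60.3 and 58.4 with ABA, and fell from 145 and 134 to 72.6 and 66.2 CPM in skip-1 (−0.80 ± 0.14, edgeR adjusted p = 0.0274). In wild type the change of EXPA4 was not called. EXPA1 lost its call without wild type mock replicate 1 or any 1 of the 4 libraries with ABA (adjusted p up to 0.104), and EXPA4 without any 1 library other than skip-1 mock replicate 2 (up to 0.111). XTH7 (−0.72 ± 0.15, edgeR adjusted p = 0.0481) was the third called below 0 and lost its call without any 1 library (up to 0.146). XTH7 also lost its call with RLE scaling (edgeR adjusted p = 0.0523), library size scaling (0.0941) or limma-voom (0.0543). EXPA4 lost its call with library size scaling too (edgeR adjusted p = 0.0686). XTH15 overlaps a gene on the other strand by 382 bases. The list had no call without wild type mock replicate 1 or either wild type ABA replicate, 1 without replicate 1 of skip-1 mock or either library of skip-1 with ABA, 2 without wild type mock replicate 2, and 6 without skip-1 mock replicate 2. With scaling by library size alone it had 2 above 0 and 1 below. With the replicate block 6 of the list were called, and with DESeq2 10.

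The same form, a high mock level in skip-1 that ABA brought towards that of wild type, was seen in NRAMP4 and TSO2. NRAMP4 (AT5G67330), which exports metal from the vacuole, stood between 38 and 41.2 CPM in the 4 wild type libraries and fell from 141 and 132 to 76.9 and 68.1 CPM in skip-1 (−0.95 ± 0.14, edgeR adjusted p = 0.014). TSO2 (AT3G27060), a ribonucleotide reductase subunit gene, fell from 90.6 and 90.8 to 76.5 and 64.9 CPM in wild type and from 201 and 195 to 87.6 and 73.6 CPM in skip-1 (−0.94 ± 0.17, edgeR adjusted p = 0.0268). The calls of NRAMP4 and TSO2 were lost without replicate 1 or 2 of wild type mock or replicate 1 of wild type with ABA, and that of TSO2 also without skip-1 ABA replicate 2 and with library size scaling (0.0552), with adjusted p up to 0.0701 for NRAMP4 and 0.109 for TSO2.

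In 13 genes ABA acted in opposite directions in the genotypes, 7 with a difference above 0 and 6 below. ATBETAFRUCT4 (AT1G12240), a vacuolar invertase gene, fell from 65.7 and 74.9 to 55.3 and 48.8 CPM in wild type and rose from 93.9 and 106 to 232 and 272 CPM in skip-1. Skip-1 was the higher genotype in both treatments, by 0.51 in mock and 2.28 with ABA, and the difference was 1.77 ± 0.18 (edgeR adjusted p = 0.00581). AT3G54830, an amino acid transporter family gene, fell from 33.9 and 36.3 to 13.1 and 16.2 CPM in wild type and rose from 20 and 23.7 to 31.2 and 42 CPM in skip-1 (2.00 ± 0.24, edgeR adjusted p = 0.00778). The pectin lyase-like gene AT1G04680 went the other way, from 71.2 and 75.4 up to 133 and 113 CPM in wild type and from 82 and 84.9 down to 63.1 and 53.2 CPM in skip-1 (−1.27 ± 0.17, edgeR adjusted p = 0.00955).

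The remaining lists gave 1 call or none. Among 14 flavonoid genes the median was −1.89, and TT5 (AT3G55120), chalcone isomerase, was the only one called. It rose from 22.6 and 21.3 to 77.7 and 70.5 CPM in wild type and went from 47.1 and 36.5 to 47.8 and 51.8 CPM in skip-1, where the change was not called (−1.50 ± 0.19, edgeR adjusted p = 0.00793). Without skip-1 mock replicate 2 the list had 4 calls. Of 29 iron genes, a list without AT3G25190 and NRAMP4, AT3G13610 was the only one called by edgeR, and DESeq2 called 4. AT3G13610, annotated as an oxygenase, rose from 12.2 and 8.87 to 30.6 and 38 CPM in wild type. In skip-1 it went from 19.4 and 23.5 to 20.2 in both libraries (−1.79 ± 0.25, edgeR adjusted p = 0.0126). Without either wild type mock replicate 3 iron genes were called, and 2 were without skip-1 mock replicate 1 or with the replicate block. AGL20 (AT2G45660), the flowering inducer also known as SOC1, was the only call among 17 flowering genes. It rose from 23 and 23.5 to 128 and 112 CPM in wild type and from 34.6 and 35.8 to 95.1 and 83.9 CPM in skip-1 (−1.02 ± 0.15, edgeR adjusted p = 0.0142), with the call lost without either wild type mock replicate or wild type ABA replicate 1 (up to 0.0677). Without skip-1 mock replicate 1 or skip-1 ABA replicate 2, edgeR called 2 flowering genes. Among 27 nuclear photosynthesis genes LHB1B1 (AT2G34430), a light-harvesting protein gene with near-identical copies, was called (1.23 ± 0.25, edgeR adjusted p = 0.0405), and among 16 auxin genes ATAUX2-11 (AT5G43700), an Aux/IAA gene (1.02 ± 0.21, edgeR adjusted p = 0.0405). Both lost their calls in 7 of the 8 fits that lacked 1 library, LHB1B1 in all but that without skip-1 mock replicate 2 and ATAUX2-11 in all but that without wild type ABA replicate 2 (up to 0.122).

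None of the 20 SR splicing factor genes was called by edgeR, DESeq2 or limma-voom (3 at an unadjusted p under 0.05, median 0.02). Nor was any of the 23 genes for SKIP and its partners in the spliceosome and the Paf1 complex (2 at an unadjusted p under 0.05, median 0.09). The 19 cell division genes had no call by any of the 3 tools (2 at an unadjusted p under 0.05, median 0.04), and neither had the 19 clock genes (1 at an unadjusted p under 0.05, median −0.10, and 0.08 with scaling by library size alone). Of 18 salicylate and defence genes none was called by edgeR or limma-voom and 2 were by DESeq2 (5 at an unadjusted p under 0.05, median 0.06). With the replicate block edgeR called 2 of the 20 SR genes and 1 of the 18 salicylate and defence genes. Without skip-1 mock replicate 1, edgeR called 3 of the latter, and without skip-1 mock replicate 2 it called 1 clock gene.

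**Figure D5:**
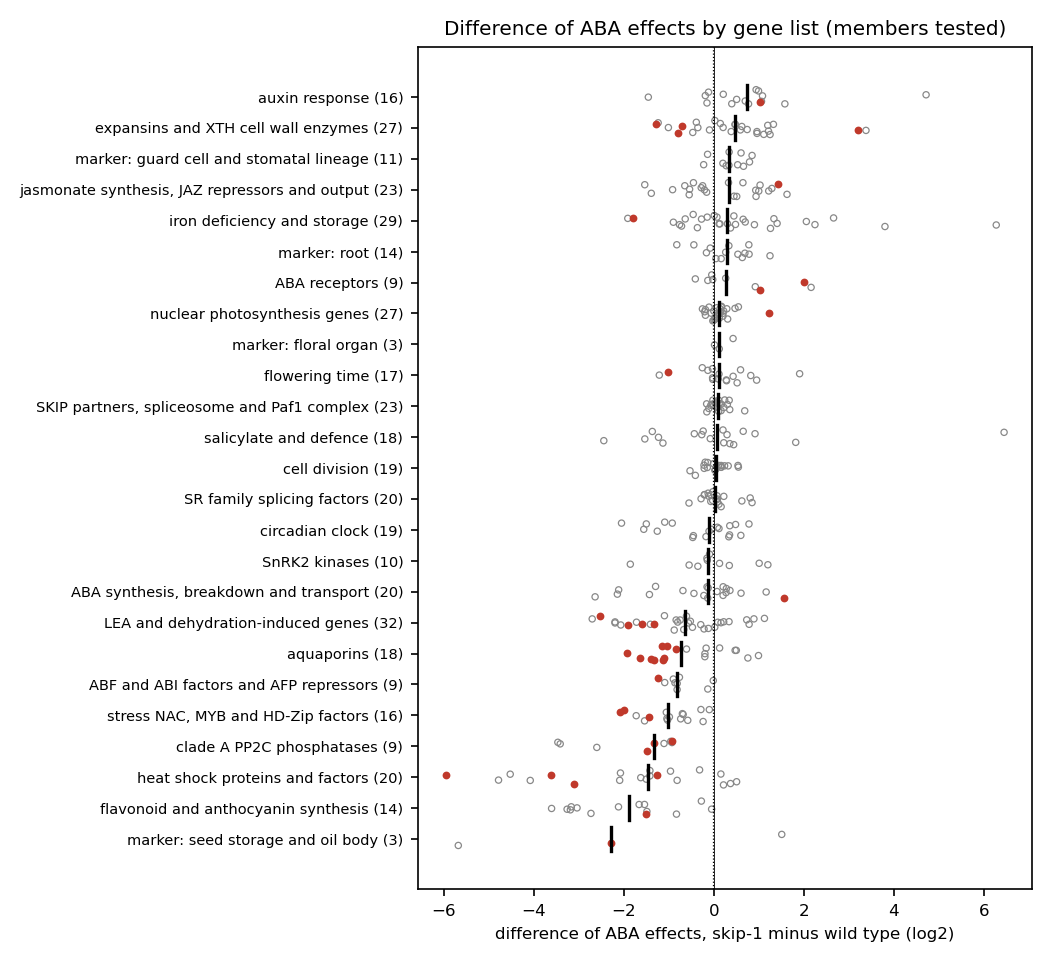
Difference of ABA effects (log2, horizontal axis) for every tested member of 25 gene lists, with called members filled, the list median as a bar, and the number of members tested in brackets. The bars run from −2.29 for the 3 seed genes and −1.89 for flavonoid synthesis to 0.74 for auxin response, and the dotted line marks the median of −0.02 over all tested genes.

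Markers of other organs and cell types were read in the same way, and their part in the results above was not tested. None of 14 root markers was called by edgeR, DESeq2 or limma-voom (2 at an unadjusted p under 0.05), and their summed level was 175 to 222 CPM in wild type mock, 188 to 225 with ABA, 191 to 219 in skip-1 mock and 219 to 244 with ABA. Of 11 guard cell and stomatal markers none was called by edgeR or limma-voom (3 at an unadjusted p under 0.05). DESeq2 called 1, as did edgeR with the replicate block or with scaling by library size alone. Their sum was 131 to 138 CPM in wild type mock and 86.3 to 95.3 with ABA, and 104 to 132 CPM in skip-1 mock and 100 to 102 with ABA, with mock and ABA libraries apart in each genotype, by more in wild type. Of 12 seed markers 3 passed the count filter and 3 had no count in any library. The sum of all 12 was low throughout, at 2.91 to 4.25 CPM in wild type mock and 5.89 to 7.16 with ABA. In skip-1 it was 3.01 to 4.05 CPM in mock and 1.73 to 3.00 with ABA. OLEO4, an oil body protein gene, was called below 0 (−2.29 ± 0.45, edgeR adjusted p = 0.0387), with a call that remained in 1 of the 8 fits lacking 1 library, that without skip-1 mock replicate 2. The OLEO4 call was also lost with limma-voom and with scaling by library size alone. Of 8 floral markers 3 were tested and none was called by any of the 3 tools, with none at an unadjusted p under 0.05. The sum of all 8 was 24.4 to 27.0 CPM in wild type mock and 15.5 to 20.5 with ABA. In skip-1 it was lower, at 11.5 to 13.9 CPM in mock and 8.84 to 11.0 with ABA.

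Exon number was described for the called genes and for all tested genes. The median was 5 exons over all tested genes and 4 in the 644 called, of which 16.2% had a single exon against 15.2% of all tested. It was 4 in the smaller rises and 6 in the smaller falls, with single-exon shares of 17.3% and 11.0%. Counts per gene do not measure splicing, which was not analysed here.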

How the data were processed

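Transcripts of 8 libraries in 4 groups were measured by RNA sequencing. The authors deposited a table of raw counts for each gene and library, used here, and a table of FPKM, which was not used. Per the submitters' processing notes, Bowtie2 2.2.3, TopHat2 2.0.12 and HTSeq 0.6.1 were used on TAIR10, with options and a strand setting that no source used here gives. Of the 33674 features, 32835 matched the RefSeq annotation of TAIR10.1, 72 were unannotated and 7972 had no count.

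Tests used edgeR 4.0.16 under R 4.3.3. Its expression filter by group kept 21008 features (63 unannotated). Scaling was by trimmed mean of M values (TMM). The robust quasi-likelihood fit of the 4 group means left 4 residual degrees of freedom, the common dispersion was 0.0178, and prior degrees of freedom had a median of 4.64. The interaction and the 4 simple effects were tested over all features with Benjamini-Hochberg adjustment at 0.05. Library totals were 20870110 to 23640113 counts, and CPM values use the scaled library sizes. The median SE of the difference over tested genes was 0.24. The script was tested on simulated counts. Counting intervals cover counting error only. Gene starts and promoters came from RefSeq TAIR10.1.

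Alternatives were RLE scaling, library size alone, no count filter, a stricter filter of 1 CPM in 4 libraries, DESeq2 1.42.0, limma-voom (limma 3.58.1), the replicate number as a block, and leaving out each library. Replicate numbers 1 and 2 recur in every group, and no label ties equal numbers to a shared batch or day. Equally numbered libraries deviated together from their group means in each of the 6 pairs of groups (correlations of 0.111 to 0.258). Counts of genes called for the difference, over all genes and by list, are therefore also given with the replicate block where it changed them. Named genes were SKIP, the 10 largest differences in each direction among called genes whose mean log2 CPM was 2 or more and whose ABA differences did not overlap between genotypes, up to 4 called genes per pathway list and up to 4 per response pattern by adjusted p. Other list members named were chosen after their values were seen. The 25 lists held 458 genes written from general knowledge. The contrast, lists and members were chosen with earlier results of these data known, so list counts are descriptions without a set test.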

Additional observations from a re-analysis of the deposited data

Results flagged for a closer look

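The ABA effect differed between genotypes, by a test of the difference itself, in 644 genes. Within these, ABA acted in opposite directions in 4 named genes. The difference was 2.00 for AT3G54830, 1.77 for ATBETAFRUCT4 and 1.5 for AT2G31010, which fell in wild type and rose in skip-1, and −1.27 for AT1G04680, which rose in wild type and fell in skip-1. AT2G31010, a protein kinase family gene, went from 33.7 and 32.7 to 19.1 and 15 CPM in wild type and from 15.1 and 18.6 to 25.4 and 23.5 CPM in skip-1 (edgeR adjusted p = 0.0119, and 0.0523 without wild type mock replicate 1).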

How the results depend on the processing

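No called gene changed sign in any other fit. The calls numbered 581 with RLE scaling (579 shared with the 644), 746 without a count filter and 618 with a stricter one. Library size scaling gave 297 above 0 and 238 below, with 405 calls shared in direction. DESeq2 gave 1201 (376 above 0, 825 below, 749 at least 2-fold, 1072 smaller responses), and limma-voom 442, with 108 above 0. An adjusted p under 0.01 left 96 (18 and 78), and a log2 size of at least 1 left 416 (298 below 0). Leaving out 1 library gave 121 to 608 calls, 25 to 186 above 0, 96 to 465 below 0, 120 to 451 of at least 2-fold and 115 to 530 smaller responses. In those fits ABA was called for 6585 to 9368 genes in wild type and 3532 to 5625 in skip-1, and the genotypes differed in 1383 to 3785 genes without ABA and 3521 to 6851 with it. The lone library of a group is then assumed to vary like the others. The difference of SKIP, not called in any fit, ranged from −0.10 to 0.27 and turned sign in 4 of these (−0.0058, −0.051, −0.10 and −0.055). Of the 63 called named genes, 20 kept their call in all 15 fits. The cause of these changes was not tested.

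With the replicate block edgeR called 1357 genes (422 above 0, 935 below, 651 at least 2-fold, 1201 smaller responses). Of the named called genes, XTH15, DIP2 and BAM5 lost their calls under the block.

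The median SE of the difference was 0.24, and the smallest called difference was 0.55.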
